A study of Mus musculus with 12 samples.

Results

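Oprm1, Gnal and Ankk1 are 3 mouse genes tied to opioid and dopamine signalling, and they were taken by symbol from the genes on which binding peaks of the RNA-binding protein YTHDF1 were listed. They are 3 of 1247 listed genes. All 3 were among the 1049 genes listed for mice given cocaine, and Gnal alone was also among the 449 genes listed for mice given saline. Striatum was taken from C57BL/6J mice (genotype WT) that had received cocaine or saline, and the labels used here give no dose, schedule, age or number of animals. The series holds 12 libraries in 4 groups of 3, which are RNA precipitated with a monoclonal antibody against YTHDF1 (CLIP) and input RNA (no antibody) for cocaine, and the same for saline. Each value is a count of CLIP peaks on 1 gene in 1 CLIP library. Input libraries were not used here, so nothing below is corrected for the abundance of an RNA, and fewer cells of a type cannot be told apart from less RNA per cell.

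YTHDF1 is a cytoplasmic reader protein for N6-methyladenosine, a base modification of mRNA, and favours the translation of bound mRNAs. Dopamine from midbrain axons acts on striatal medium spiny neurons through the receptors encoded by Drd1 and Drd2, and cocaine raises extracellular dopamine by blocking its uptake. Oprm1 encodes the mu opioid receptor, which couples to inhibitory G proteins. Gnal encodes G-alpha-olf, the stimulatory G protein subunit through which Drd1 and the adenosine receptor of Drd2 neurons raise cyclic AMP in striatum. Ankk1 encodes a protein with ankyrin repeats and a kinase domain, is the neighbour of Drd2, and is known in human genetics because a variant in it was long assigned to the dopamine receptor gene.

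The 3 cocaine libraries held 25528, 24770 and 24912 listed peaks, and the 3 saline libraries held 3789, 3720 and 3944. The number of reads behind them is unknown. The table columns carry no replicate number, and the libraries are called 1 to 3 in column order within a treatment. The labels do not say that the libraries came from separate animals, so the spread and the p-values cover differences between these samples, which may be technical. No listed gene was without a peak in any of its 3 libraries, and the lowest mean was 6.33 peaks for cocaine and 1.33 for saline. A gene that is not listed may therefore have had peaks below the list's cutoff. The labels name striatal neurons. Over all 21900 coding genes 3.34% were listed in either table, and the marker counts that follow are too small to set against this share. Of 19 markers of medium spiny neurons 1 was listed (5.26%), Gad1, an enzyme of GABA synthesis, with 5, 2 and 2 peaks in saline and no entry for cocaine. Chat, the acetylcholine-synthesising enzyme of cholinergic interneurons, was the 1 of 7 interneuron markers listed, with 13, 10 and 5 peaks in cocaine. Markers of other cells were listed as well: 2 of 6 for cortical excitatory neurons (Mef2c for cocaine and Cux2 for saline), 1 of 9 for oligodendrocytes (Cnp, both), 2 of 6 for microglia (Cx3cr1 for cocaine and P2ry12 for both), 1 of 5 for endothelial cells (Pecam1 for saline) and 0 of 6 for astrocytes. The part of these cells in the values below was not tested.

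The receptor gene Oprm1 (ENSMUSG00000000766) lies on chromosome 10 from 6758593 to 7038209 (mm10), a span of 279.6 kb. It had 27, 9 and 13 peaks in cocaine libraries 1, 2 and 3, and it was not listed for saline. Library 1 held 3.0 times the peaks of library 2, although the libraries' totals were nearly equal. As a share of the listed peaks of each library this was 10.6, 3.63 and 5.22 per 10000. The mean was 16.3 ± 9.45 peaks (SD, n = 3), and it was 11.0 without library 1. Its coefficient of variation of 57.9% was exceeded by 222 of the 1049 cocaine genes, and the median was 36.2% over the 228 genes with a mean of 13.3 to 20.3 peaks. Oprm1 therefore stood higher than 79.9% of the cocaine genes in library 1, than 27.6% in library 2 and than 49.1% in library 3. By its mean it ranked 371 of 1049.

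The G protein gene Gnal (ENSMUSG00000024524) lies on chromosome 18 from 67088298 to 67226792 (mm10), a span of 138.5 kb. Cocaine libraries 1 to 3 held 9, 11 and 4 of its peaks, against 2, 3 and 2 in saline libraries 1 to 3. The groups did not overlap, but the lowest cocaine library was only 1 peak above the highest saline library. On average this was 8.0 ± 3.61 peaks per cocaine library against 2.33 ± 0.577 per saline library (SD, n = 3 each). Gnal was among the less covered genes of both lists, at rank 816 of 1049 for cocaine and 329 of 449 for saline. Its saline mean lies below the lowest mean that occurs in the cocaine list, at a level where no gene was listed for cocaine.

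Ankk1 (ENSMUSG00000032257) lies on chromosome 9 from 49415194 to 49427041 (mm10), a span of 11.8 kb. It had 49, 26 and 40 peaks in cocaine libraries 1 to 3 and was not listed for saline. Every library placed it above at least 78.4% of the cocaine genes. The mean was 38.3 ± 11.6 peaks (SD, n = 3), or 15.2 ± 4.40 per 10000 listed peaks. It ranked 112 of 1049, and its coefficient of variation was 30.2%. Library 1 held most peaks for both Ankk1 and Oprm1 and library 2 fewest, whereas Gnal had most in library 2 and fewest in library 3.

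**Figure D1:**
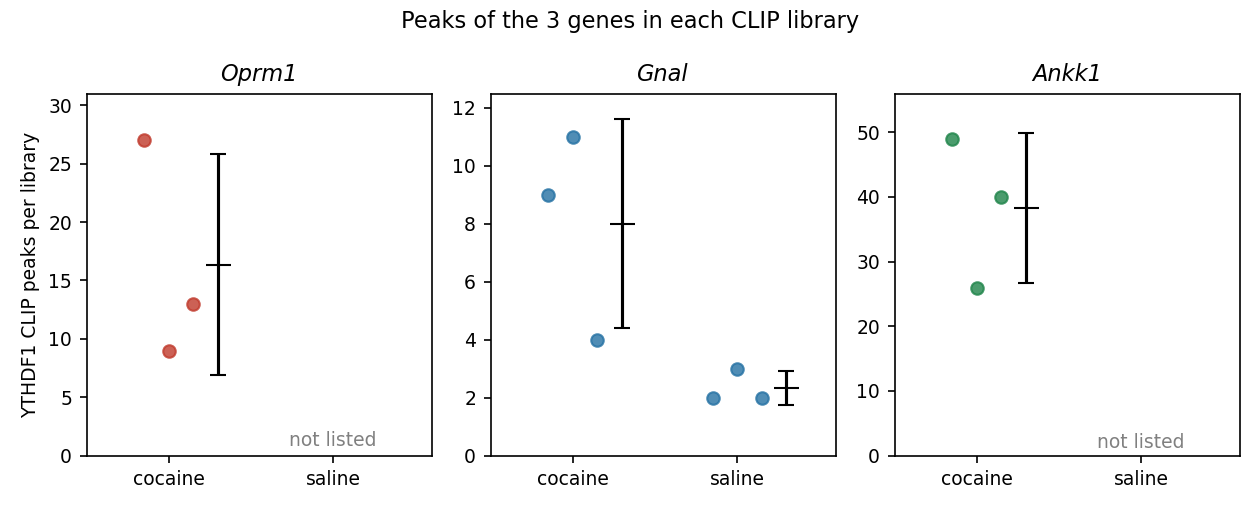
YTHDF1 CLIP peaks per library (vertical axis, a scale of its own in each panel) for Oprm1, Gnal and Ankk1 in cocaine and saline. Points are the 3 libraries in column order, and the line with caps is the mean with 1 SD. Oprm1 spreads from 9 to 27 peaks and is not listed for saline, Gnal has 4 to 11 peaks in cocaine against 2 to 3 in saline, and Ankk1 has 26 to 49 and is not listed for saline.

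Ankk1 stood furthest from Oprm1 and Gnal when peaks were divided by gene length. Per kilobase of annotated gene, introns included, Ankk1 had 3.24 peaks per cocaine library, Oprm1 0.0584 and Gnal 0.0578. The median was 0.390 over the 714 cocaine genes with a symbol and an annotated length. On this scale Ankk1 ranked 43, while Oprm1 and Gnal ranked 601 and 602, next to each other. Oprm1 thus moved from above 64.1% of the cocaine genes by peaks per gene to above 15.8% of those with a length by peaks per kilobase. Gnal had 0.0168 peaks per kilobase in saline, where the median was 0.050 over 344 genes.

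Length did not order the genes within the cocaine list. Across its 565 coding genes, the Spearman correlation of length with mean peaks was 0.04, a description across genes that share the same libraries. It covers only genes with a mean of 6.33 peaks or more. Over all coding genes, the share listed in either table rose from 1.37% under 20 kb to 16.6% at 200 kb and more. The correlation therefore does not describe unlisted genes. Given the correlation of 0.04, ranks by peaks per kilobase within the cocaine list largely follow gene length itself. This places long genes such as Oprm1 low and short ones such as Ankk1 high. Among the 71 other coding genes within 1.5-fold of the length of Ankk1, the median was 9.33 peaks (interquartile range 7.33 to 14.2), and 3 had a higher mean than Ankk1. These 3, named after their values were seen, were Lrtm1 (50.7 ± 10.02 peaks), Hipk4 (43.7 ± 14.4) and Cnp (38.7 ± 8.39), and all of them were also listed for saline. Lrtm1 overlaps Cacna2d3 and Cnp overlaps Dnajc7, whereas Hipk4, like Ankk1, overlaps no other annotated gene. The 51 coding genes near the length of Oprm1 had a median of 12 peaks, and 17 were above it. Of the 88 near the length of Gnal, 63 were above it and the median was 13.0.

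**Figure D2:**
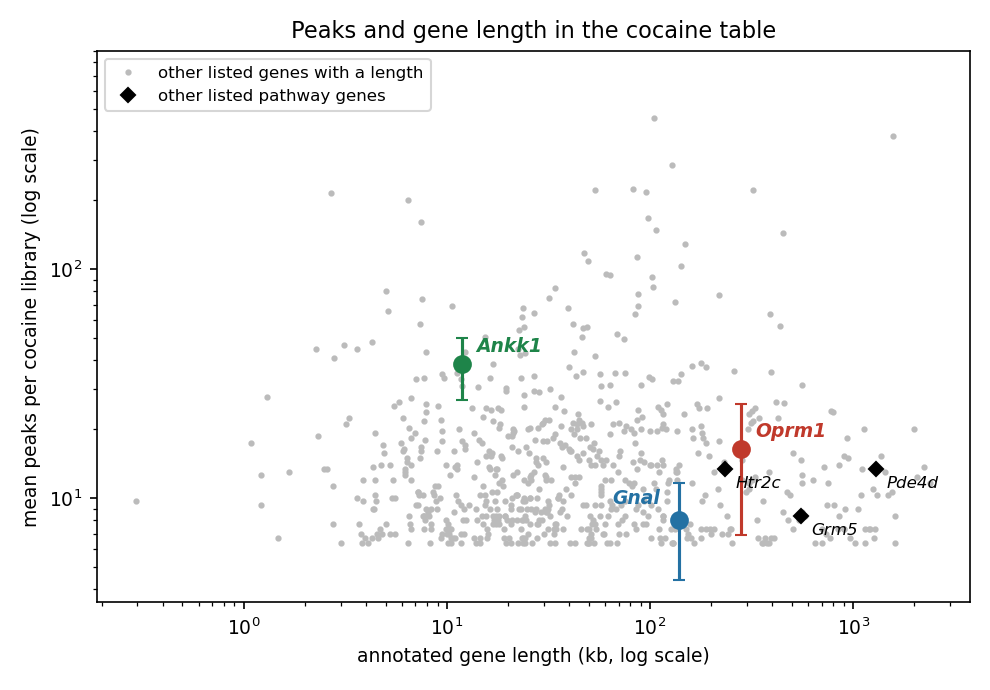
Mean peaks per cocaine library (vertical axis, log scale) against annotated gene length in kb (horizontal axis, log scale) for cocaine genes with a symbol and a length. Coloured points with bars are Oprm1, Gnal and Ankk1 with 1 SD, black diamonds the other listed genes of the pathway lists, and grey points the rest. Ankk1, at 11.8 kb and 38.3 peaks, lies in the upper part of the cloud of short genes, while Oprm1, at 279.6 kb and 16.3 peaks, and Gnal, at 138.5 kb and 8.0 peaks, lie among the longer genes.

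Peaks were given to genes without a position or strand, so the annotated neighbours limit what can be assigned. Oprm1 shares 152.4 kb, or 54.5% of its span, with Ipcef1, which encodes an interactor of cytohesin exchange factors and was listed in neither table. Gnal overlaps 3 annotated genes. The snRNA Gm23512 and Chmp1b, a gene of the membrane-remodelling ESCRT machinery, lie within it and were not listed. Mppe1, a metallophosphoesterase gene that acts on GPI-anchored proteins, shares 1.75 kb with one end of Gnal and was listed for cocaine, with 3, 12 and 8 peaks (7.67 ± 4.51, SD, n = 3). Its order over the libraries differs from the 9, 11 and 4 peaks of Gnal. Among all cocaine coding genes, 454 of 565 (80.4%) overlap another annotated gene, so the lack of any overlap at Ankk1 is the less common case.

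The dopamine receptor genes themselves were not listed. Drd2, on chromosome 9 from 49340360 to 49408177, ends 7.02 kb from Ankk1, and the non-coding Gm46111 lies 4.28 kb from it. On the other side Ttc12, a tetratricopeptide repeat gene, begins 9.92 kb away, and Ncam1, a neural cell adhesion gene, 75.1 kb away. None of these 4 neighbours was in either table under its symbol. The only other listed gene annotated within 100 kb of Ankk1 was the non-coding Gm11149, which lies inside the span of Ncam1, 91.2 kb from Ankk1. It was picked out after its values were seen, and held 109, 90 and 126 peaks in the cocaine libraries, against 4, 9 and 12 in the saline libraries. Like Ankk1 it had fewest peaks in cocaine library 2, but its highest value was in library 3. Drd1, on chromosome 13 from 54051183 to 54055658, overlaps no annotated gene and has no listed gene within 100 kb. In all, 327 cocaine genes and 102 saline genes have no symbol in the tables and could not be placed, so peaks given to such a gene at these loci would not be seen here.

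**Figure D3:**
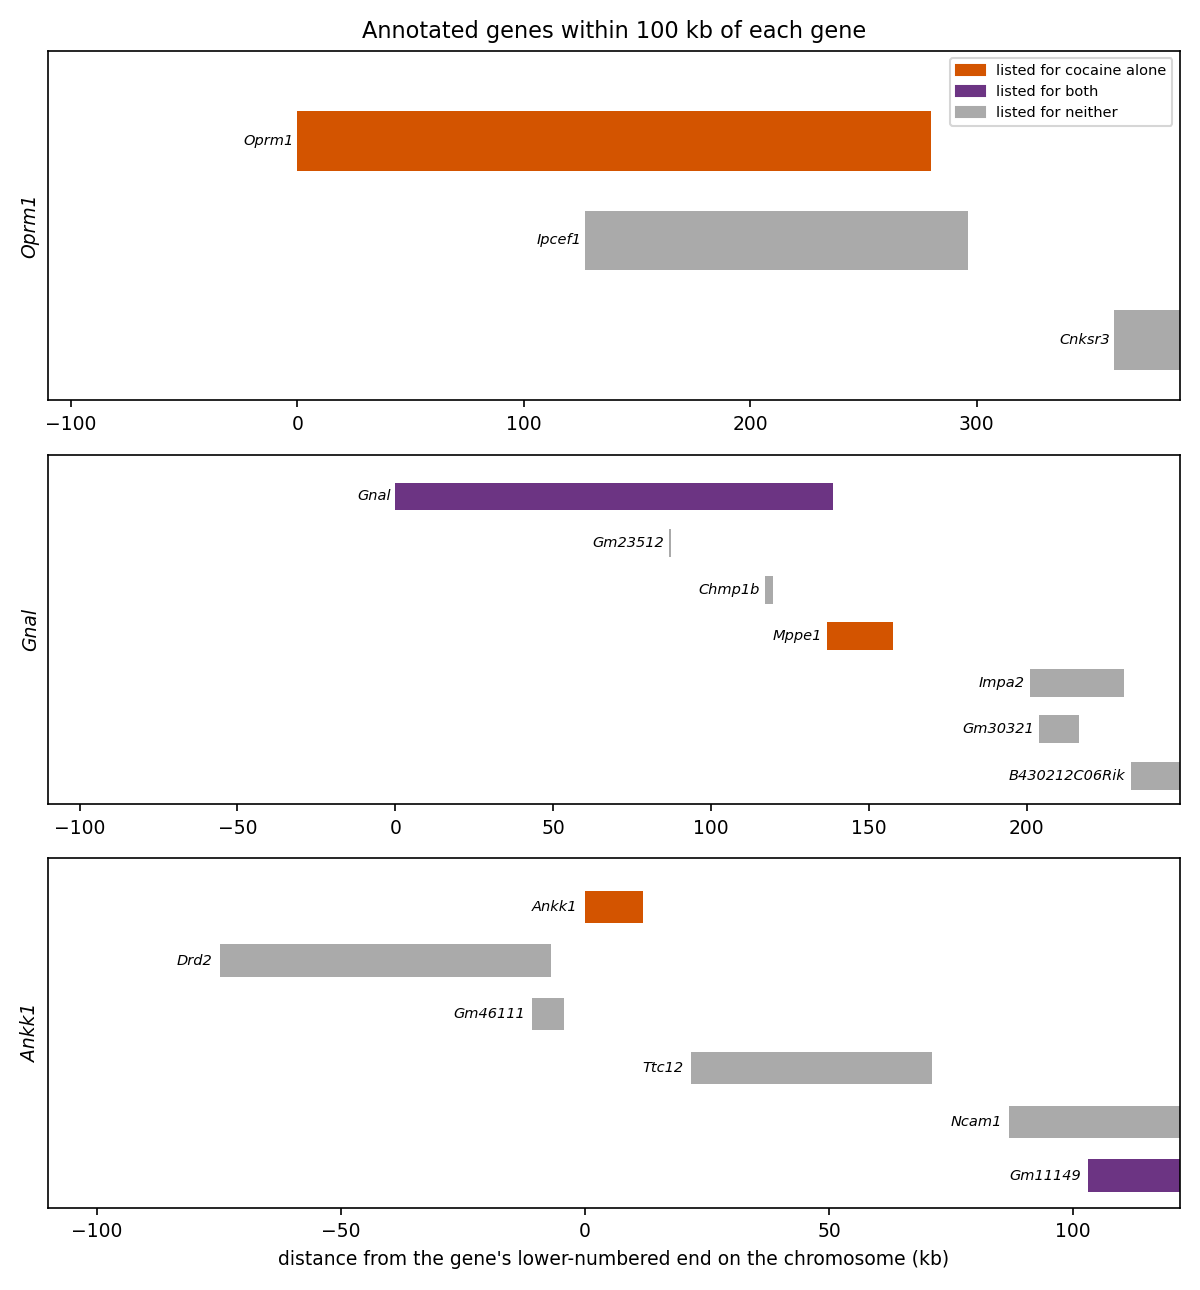
Annotated genes within 100 kb of Oprm1, Gnal and Ankk1, drawn to scale by distance in kb from the lower-numbered end of each gene (horizontal axis), with 1 row per gene. Colours show whether a gene was listed for cocaine alone, for both treatments or for neither. At Ankk1 the neighbouring Drd2 and Ttc12 are grey, and the next listed gene is Gm11149 at 91.2 kb.

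The genes of these pathways and the neighbours of Drd2 were then counted in 9 lists holding 99 different genes, called pathway genes below. Oprm1, Gnal and Ankk1 are among them, Ankk1 only as a neighbour of Drd2. Of the 99 genes, 6 (6.06%) were listed, all for cocaine and 1 also for saline. Over all coding genes the share was 3.34% in either table, 2.58% for cocaine and 1.33% for saline. Oprm1, Gnal and Ankk1 are among the 6 and were chosen because they are listed. That choice raises the 6.06%, so it cannot be read as an excess over all coding genes. From opioid ligands and receptors 1 of 8 was listed, Oprm1, so neither the delta, kappa and nociceptin receptor genes nor the opioid peptide precursors Penk, Pdyn, Pomc and Pnoc were. None of the 5 dopamine receptor genes and none of the 9 genes of dopamine synthesis, storage, uptake and breakdown was listed, including Slc6a3, the transporter that cocaine blocks. Gnal was the 1 of 16 G protein subunit genes, and 0 of 15 regulators of receptors and G proteins and 0 of 4 G protein gated potassium channel genes were listed. With 3.34% of all coding genes listed, lists of 4 to 16 genes are too short for these counts to show a lack.

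Downstream of the receptors, 1 of 26 genes of cyclic AMP signalling was listed. This was Pde4d, a phosphodiesterase that degrades cyclic AMP, with 6, 17 and 17 peaks in cocaine libraries 1 to 3 (13.3 ± 6.35, SD, n = 3). From 11 other G protein coupled receptors of striatum, Htr2c and Grm5 were listed. Htr2c, a serotonin receptor gene, had 13, 13 and 14 peaks (13.3 ± 0.577), the least spread of these genes, and Grm5, a metabotropic glutamate receptor gene, had 10, 9 and 6 (8.33 ± 2.08). Per kilobase, Htr2c had 0.0568 peaks, close to Oprm1 and Gnal, and Pde4d and Grm5 had 0.0102 and 0.0151. Ankk1 was the 1 of 6 genes listed from the neighbourhood of Drd2. These lists were drawn up with earlier results of the data known, and the counts are a description.

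Most of the listed pathway genes are long. Their median length was 257.2 kb, against 38.3 kb for the 93 that were not listed. Over all coding genes, the medians were 58.2 kb for listed and 16.5 kb for other genes. Of the pathway genes of 100 kb and more, 5 of 29 were listed (17.2%), against 275 of 2429 such coding genes (11.3%). Of those under 100 kb, 1 of 70 was listed (1.43%), against 456 of 19471 (2.34%). That 1 gene is Ankk1, which is in the lists only as a neighbour of Drd2. The 5 longer genes include Oprm1 and Gnal. Oprm1, Gnal and Ankk1 were chosen because they are listed, so both pathway shares are raised by that choice. Drd1 spans 4.48 kb and Drd2 67.8 kb, and 1.37% of coding genes under 20 kb and 4.73% of those from 50 to 100 kb were listed.

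**Figure D4:**
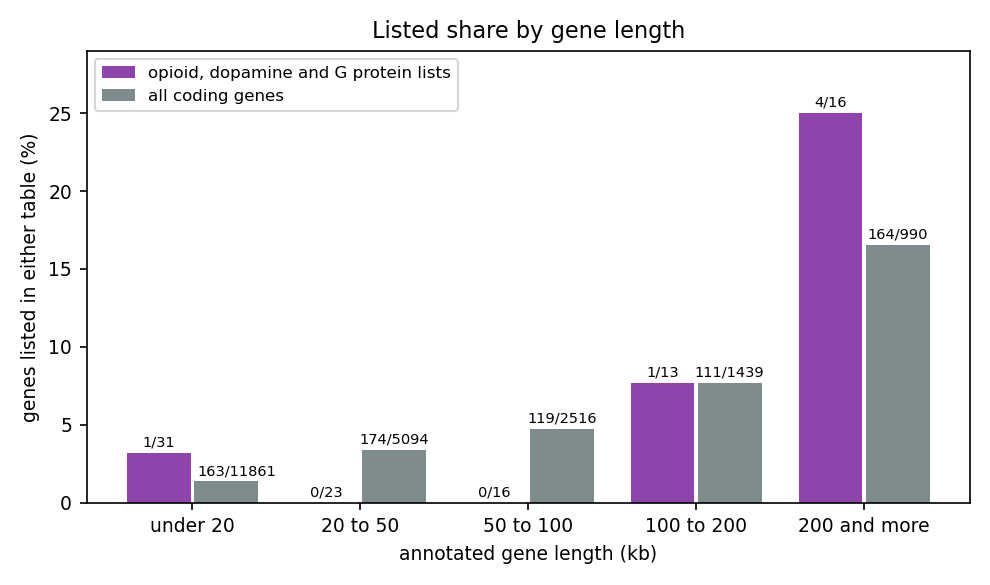
Percent of genes listed in either table (vertical axis) by annotated gene length in kb (horizontal axis), with listed over total genes above each bar. Purple bars are the 99 genes of the opioid, dopamine and G protein lists, with the neighbours of Drd2 included. Grey bars are all coding genes. The grey share climbs with length to 16.6% at 200 kb and more, and the purple bars hold 4 of 16 genes there and 1 of 31 under 20 kb. The purple counts include Oprm1, Gnal and Ankk1, which were chosen because they are listed.

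Being listed for cocaine and not for saline, as Oprm1 and Ankk1 were, was the usual case: it held for 798 of the 1049 cocaine genes (76.1%). The share depended on the number of peaks. Of the 227 other cocaine genes with a mean like that of Oprm1 (13.3 to 20.3 peaks), 51 were also listed for saline (22.5%, exact 95% interval 17.2 to 28.5), so its absence from the saline list is shared by most genes at its level. Of the 74 near the mean of Ankk1 (30.7 to 46.7 peaks), 34 were listed for saline (45.9%, 34.3 to 57.9), with a median of 6.67 saline peaks among those 34. Absence from the saline list was thus common at the level of Ankk1 too. Of the 111 genes with more peaks than Ankk1 in cocaine, 90 were listed for saline (81.1%) and 21 were not. These 111 include the best covered genes of the list and are not matched to Ankk1 in level. For Gnal the position is the opposite, since only 31 of 335 genes near its cocaine mean (6.67 to 10 peaks) were listed for saline (9.25%, 6.37 to 12.9). The intervals cover counting error only.

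**Figure D5:**
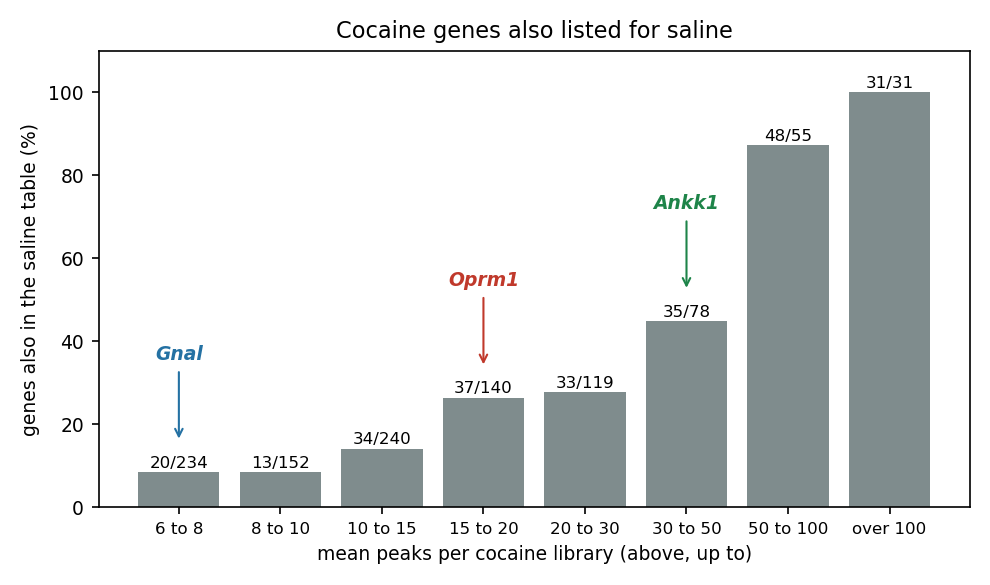
Percent of cocaine genes that were also listed for saline (vertical axis), by mean peaks per cocaine library (horizontal axis), with the number listed for saline over the number of genes above each bar. Arrows mark the bars that hold Gnal, Oprm1 and Ankk1. The share is 8.55% for genes above 6 and up to 8 peaks, where Gnal lies, and 44.9% above 30 and up to 50, where Ankk1 lies.

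For Gnal, the 1 gene of the 3 that could be compared between treatments, the raw number of peaks was 3.43 times as high in cocaine as in saline. The difference of 5.67 peaks had an exact two-sided permutation p of 0.1, the smallest that 3 libraries against 3 allow. The lowest mean listed for cocaine was 6.33 peaks, above the saline mean of Gnal (2.33). A gene listed for both treatments at that saline level could only have a higher mean in cocaine. The direction was therefore set by the lists, and this p-value cannot test it. All 3 cocaine libraries were above all 3 saline libraries for 195 of the 251 genes in both tables (77.7%), so this order is near the background. The median ratio over those genes was 4.54 (interquartile range 3.0 to 6.63), and 84 of the 251 had a lower ratio than Gnal. Most of them had more peaks than Gnal. Among the 31 shared genes near its cocaine mean (6.67 to 10 peaks) the median ratio was 2.22 (interquartile range 1.41 to 3.20). Gnal thus lay below the median of all shared genes and above the upper quartile of those at its cocaine level. Among genes matched by cocaine mean, a higher ratio mainly restates a lower saline count. This second place is therefore no measure of a larger gain of Gnal. Relative to all listed peaks of a library, Gnal turned round, with 3.53, 4.44 and 1.61 per 10000 in cocaine against 5.28, 8.06 and 5.07 in saline (exact two-sided permutation p = 0.1). On this scale too the groups of Gnal do not overlap, and the same order, with all 3 cocaine libraries lower, held for 70 of the 251 genes (27.9%). The median gene in both tables had a share 0.690 times that of saline, where the cocaine total includes 798 genes that the saline list lacks, and Gnal stood at 0.520 times. Both totals also hold 1 gene without a symbol, ENSMUSG00000092329, with a mean of 825 of 3818 saline and 1645 of 25070 cocaine peaks. The shares depend on that gene as well.

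Tested within the genes listed for both treatments, the share of Gnal did not pass the threshold. In edgeR's quasi-likelihood test over 251 genes its log2 difference in share, cocaine over saline, was -0.43 (SE 0.67, 95% interval -1.86 to 1.01, Benjamini-Hochberg adjusted p = 0.757). In the same test 50 of the 251 genes (19.9%) passed at 0.05, 21 with a higher share in cocaine (8.37%) and 29 with a lower one (11.6%). With all listed peaks as the library total these counts were 4 higher and 52 lower, and without cocaine library 2 and saline library 1 in turn 7 and 13 genes were higher, while Gnal did not pass in any of these. The interval reaches past a 2-fold change on either side, so at 2 to 11 peaks per library a moderate difference in the share of Gnal was not detectable. The test also holds only genes that reached both lists, and the lowest mean listed for cocaine was 6.33 peaks, against 8.0 for Gnal. A share of Gnal much lower in cocaine could therefore not have appeared in it.

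Other genes with peaks spread over the libraries like those of the 3 genes were ranked by the summed absolute difference in log2 peaks over the 3 libraries of a table. Nearest to Oprm1 among 716 other cocaine genes with 1 symbol were the non-coding 4833422C13Rik (26, 10 and 12 peaks, summed difference 0.32), 4932702P03Rik (26, 11 and 12, summed difference 0.46) and Il1rapl1, a synapse-organising receptor gene (22, 9 and 15, summed difference 0.50). Nearest to Ankk1 were Fam210a (41, 31 and 40 peaks, summed difference 0.51), Cenpp, a kinetochore gene (46, 31 and 35, summed difference 0.54), and Alas2, an enzyme gene of haem synthesis (35, 25 and 40, summed difference 0.54). Nearest to Gnal in cocaine were Nup210l (7, 11 and 4 peaks, summed difference 0.36), Agrn, the gene of the synaptic proteoglycan agrin, and Tbc1d22bos (8, 13 and 4 peaks each, summed difference 0.41). In saline, 4 of 344 other genes had the same 2, 3 and 2 peaks as Gnal, and the first by name were Cbfa2t3, Cdca7l and Csrp3. With 3 libraries and counts this low, such likeness is a description.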

How the data were processed

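CLIP and input libraries were made from striatum after ultraviolet crosslinking, per the labels' protocols. The names cutadapt, STAR and mm10 are given, without versions or roles, per the submitters' processing notes, and CLIPper only in the file names. How peaks were called, filtered and assigned to genes is not given in the sources used here. Deposited by the authors was 1 table per treatment, with counts of peaks for each gene and library and a score that is their mean. A table was tied to a treatment by the letter c or s in its name. Repeated lines of a gene were counted once (1084 lines for 1049 genes, 463 for 449).

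Lengths, coordinates and neighbours came from RefSeq GRCm38.p6, the assembly that mm10 names, by symbol. Genes of both tables (251) went into edgeR 4.0.16 (R 4.3.3; TMM, quasi-likelihood, no further filter, because filterByExpr drops Gnal), after a test on simulated data. DESeq2 1.42.0 was an alternative. Python 3.11.15, pandas 2.3.3, NumPy 2.4.6, SciPy 1.17.1 and matplotlib 3.10.9 were used. Named were the 3 genes, listed members of the pathway and marker lists, Drd1 and Drd2, overlapping and nearest genes, and the 3 genes most alike per table. Genes and lists were chosen with earlier results of these data known.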

Additional observations from a re-analysis of the deposited data

How the results depend on the processing

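The log2 difference in share of Gnal was negative and did not pass the threshold under any of 10 alternatives that gave a value, from -0.92 to -0.10, with edgeR adjusted p from 0.375 to 0.949. DESeq2 gave -0.38 with an unadjusted p of 0.695 and no adjusted p for Gnal. With filterByExpr, 202 genes were tested and Gnal was not among them. With all listed peaks as the library total, 4 genes had a higher and 52 a lower share in cocaine, against 21 and 29 in the reported test. Leaving out 1 library at a time gave 7 to 21 genes with a higher share, lowest without cocaine library 2 and 13 without saline library 1, and 20 to 30 with a lower share. Mean peaks then ran from 11.0 to 20 for Oprm1 and from 33.0 to 44.5 for Ankk1 in cocaine, and for Gnal from 6.5 to 10 in cocaine and 2.0 to 2.5 in saline. The percentile of Oprm1 was 15.8 per kilobase, against 64.1 per gene. Windows of 1.5-fold gave shares of genes also listed for saline of 20.5% for Oprm1, 8.47% for Gnal and 49.6% for Ankk1. No paired analysis was possible because the columns carry no replicate numbers. Peak counts of 2 to 49 and the unknown number of reads limit all values.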
